A study of Homo sapiens with 12 samples.

Results

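The 9 genes described here are long noncoding RNAs, several of them nuclear or hosts of small RNAs: MALAT1, NEAT1, LINC00342, KCNQ1OT1, GAS5, SNHG1, TUG1, MIR22HG and H19. They were taken by name from a table of 58302 genes, in which 10 rows carried 1 of these names because MALAT1 named both its own gene and a 95-base row inside it. The genes had been picked for their levels in GEM-resistant against parental cells, so their differences in those comparisons are given as descriptions without a test. The study derived GEM-resistant cells from 2 human pancreatic ductal adenocarcinoma lines to ask which RNAs differed once resistance to gemcitabine (GEM), a nucleoside analog used against this cancer, had been acquired. RNA was sequenced from 12 libraries, 3 of each parental line (BxPC-3 and CFPAC-1) and 3 of each resistant line (BxPC-3-GR and CFPAC-1-GR).

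BxPC-3 and CFPAC-1 were the untreated parental lines, and each GR line was 1 line selected from its parent with stepwise rising GEM, BxPC-3-GR to a higher final concentration than CFPAC-1-GR. The sample records name the same medium for all 4 lines, whereas the methods name another for CFPAC-1, and only BxPC-3-GR is recorded as mesenchymal in shape. Nothing states that the 3 libraries of a group came from separate cultures, so the p-values below measure the spread between these libraries, which may be technical. Values are FPKM, in which a gene's fragments are scaled to its length and to the library's mapped fragments, and the steps between low values implied 12600000 to 25100000 mapped fragments per library. All 6 ductal epithelial markers, among them KRT19, EPCAM and CDH1, lay at or above 18.1 FPKM in every library. Of the mesenchymal markers, CDH2 and FN1 were higher in BxPC-3-GR than in BxPC-3 (5.40 against 1.99 and 9.09 against 5.30 FPKM), and VIM (0.813 against 6.59) and ZEB1 (0.00333 against 0.0329) were lower. Of the leukocyte markers, PTPRC was listed at 0 and CD3E did not exceed 0.0968 FPKM, whereas CD68 ranged from 0.909 to 36.9, and the fibroblast and endothelial markers did not exceed 3.32 and 0.817. Mitochondrial genes took 6.77% to 13.1% of summed FPKM in CFPAC-1, 27.2% to 28.9% in CFPAC-1-GR and 37.2% to 40.4% in the BxPC-3 lines, and whether this bears on the values below was not tested.

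Long noncoding RNAs are transcribed like messenger RNAs but are not translated. MALAT1 gathers in nuclear speckles, bodies rich in splicing factors, whereas NEAT1 is the scaffold on which paraspeckle proteins assemble. KCNQ1OT1 and H19 are imprinted transcripts of chromosome 11, and GAS5, SNHG1 and MIR22HG are host genes whose introns or exons hold small RNAs while the spliced remainder of several of them is degraded quickly.

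All positions are on GRCh38, from GENCODE release 29. MALAT1 (ENSG00000251562, chr11:65497688-65506516, plus strand) and NEAT1 (ENSG00000245532, chr11:65422774-65445540, plus strand) are intergenic neighbors whose ends lie 52148 bases apart. LINC00342 (ENSG00000232931) lies at chr2:95807118-95816215 on the minus strand, and TUG1 (ENSG00000253352) at chr22:30969245-30979395 on the plus strand. KCNQ1OT1 (ENSG00000269821, chr11:2608328-2699994, minus strand) is a single annotated transcript of 91667 bases that runs antisense through KCNQ1. H19 (ENSG00000130600, chr11:1995176-2001470), SNHG1 (ENSG00000255717, chr11:62851988-62855914), GAS5 (ENSG00000234741, chr1:173863900-173868882) and MIR22HG (ENSG00000186594, chr17:1711493-1717174) are on the minus strand. Among the 9 genes, 5 lie on chromosome 11. The exons of 4, namely MALAT1, NEAT1, KCNQ1OT1 and TUG1, join into 1 uninterrupted block. GC content of the longest transcript lay between 40% and 45% in 7 genes, and was 49.5% in MIR22HG and 63.4% in H19.

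The 3′ ends of MALAT1 and of the long form of NEAT1 are shown because both lack a poly(A) tail there. Each ends in an A-rich tract that folds back onto U-rich stretches into a triple helix after RNase P has cut behind it. How such RNAs entered these libraries depends on the selection of RNA, which is not given in the sources used here. Capitals mark the second U-rich stretch and the A-rich tract in the 110 bases up to that tract, written as DNA from GENCODE transcripts. The tract closes the longest NEAT1 transcript and lies 353 bases before the annotated end of the longest MALAT1 transcript.
MALAT1, chr11:65506007-65506116, plus strand: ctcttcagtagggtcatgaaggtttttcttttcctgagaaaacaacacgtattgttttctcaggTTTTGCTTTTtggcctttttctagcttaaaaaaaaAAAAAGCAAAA
NEAT1, chr11:65445431-65445540, plus strand: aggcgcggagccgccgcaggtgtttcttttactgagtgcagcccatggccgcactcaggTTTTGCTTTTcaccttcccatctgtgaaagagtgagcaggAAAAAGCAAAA
The letters TTTTGCTTTT followed by AAAAAGCAAAA within 110 bases on the transcribed strand occurred in 3 of 58676 annotated genes. Among 14994 long noncoding genes, MALAT1 and NEAT1 were the only ones with them. The letters were read from these ends, so the rarity is a description.

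The second row named MALAT1 (RF01871, ENSG00000278217) is an annotated 95-base RNA inside the MALAT1 gene body at chr11:65502914-65503008, plus strand, with a GC content of 29.5%. It is shown because its values did not follow those of MALAT1.
RF01871: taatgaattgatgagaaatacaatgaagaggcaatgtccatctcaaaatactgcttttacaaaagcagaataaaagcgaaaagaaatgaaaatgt

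For the host genes of microRNAs, the mature products are shown with the seed, bases 2 to 8, in capitals, from RefSeq on GRCh38.p14. MIR22HG is the host of miR-22 and H19 the host of miR-675, both on the minus strand.
miR-22-3p, chr17:1713914-1713935, minus strand: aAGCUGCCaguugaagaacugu
miR-22-5p, chr17:1713952-1713973, minus strand: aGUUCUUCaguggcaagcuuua
miR-675-3p, chr11:1996768-1996787, minus strand: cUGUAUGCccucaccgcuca
miR-675-5p, chr11:1996800-1996822, minus strand: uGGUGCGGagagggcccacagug
These products are shorter than the fragments of such a library, and none of the 4 shared a seed.

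MALAT1 was high in 3 of the 4 groups and near 0 in CFPAC-1. In RNA from whole cultures, fewer cells that express a gene and less of its RNA per cell cannot be told apart. MALAT1 lay at 20.2, 19.19 and 29.15 FPKM in BxPC-3, 32.1, 33.68 and 46.07 in BxPC-3-GR, 0.204, 0.254 and 0.240 in parental CFPAC-1, and 33.18, 29.1 and 29.44 in CFPAC-1-GR. BxPC-3-GR was above BxPC-3 and CFPAC-1-GR was above CFPAC-1 without overlap, whereas CFPAC-1-GR overlapped both BxPC-3 groups. In order, the means were 37.28 ± 7.65 (SD, n = 3) in BxPC-3-GR, 30.58 ± 2.26 in CFPAC-1-GR, 22.85 ± 5.49 in BxPC-3 and 0.233 ± 0.025 in CFPAC-1. On the log2(FPKM + 1) scale used for all log2FC below, which understates the change of low genes, MALAT1 differed by 0.69 (SE 0.20) in BxPC-3-GR and by 4.68 (SE 0.074) in CFPAC-1-GR. The latter was the 4th highest of 12051 genes tested, and the ratio of the mean FPKM was 131.5.

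NEAT1 was likewise near 0 in CFPAC-1 alone, at a lower level elsewhere. Its FPKM values were 3.597, 4.49 and 5.65 in BxPC-3, 4.89, 5.37 and 7.07 in BxPC-3-GR, 0.223, 0.0699 and 0.135 in parental CFPAC-1, and 4.52, 4.10 and 4.83 in CFPAC-1-GR. CFPAC-1 alone stood apart, while BxPC-3 overlapped both GR lines and CFPAC-1-GR lay just below BxPC-3-GR without overlap. The log2FC was 0.28 (SE 0.17) in BxPC-3-GR and 2.26 (SE 0.084) in CFPAC-1-GR, and the latter corresponded to a 31.5-fold ratio of mean FPKM.

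TUG1, a conserved RNA found in nucleus and cytoplasm, differed little among the other groups and was again lowest in CFPAC-1. FPKM was 10.1, 9.80 and 10.8 in BxPC-3, 8.55, 8.12 and 8.83 in BxPC-3-GR, 0.978, 1.40 and 1.18 in parental CFPAC-1, and 8.56, 7.99 and 7.58 in CFPAC-1-GR. BxPC-3 was highest, both GR lines overlapped beneath it, and CFPAC-1 was lowest. The log2FC was -0.24 (SE 0.058) in BxPC-3-GR and 2.05 (SE 0.092) in CFPAC-1-GR, a 6.78-fold ratio of means in the CFPAC-1 pair.

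LINC00342, a multi-exon RNA, was low in both parental lines and higher in both resistant lines. Its FPKM values were 0.408, 0.253 and 0.249 in BxPC-3 and 3.23, 2.89 and 1.07 in BxPC-3-GR. They were 0.402, 0.337 and 0.470 in CFPAC-1 and 22.9, 16.55 and 17.29 in CFPAC-1-GR. Each resistant group lay above its parental group without overlap, the parental groups overlapped each other, and CFPAC-1-GR lay above BxPC-3-GR. Within BxPC-3-GR the third library was the lowest, and the mean of this group was 2.40 ± 1.16 FPKM. The log2FC was 1.32 (SE 0.27) in BxPC-3-GR and 3.81 (SE 0.13) in CFPAC-1-GR, with ratios of means of 7.89 and 46.9. Its nearest tested neighbor ANKRD36C, 20704 bases away on the same strand, rose in BxPC-3-GR (log2FC 1.75, limma adjusted p = 3.2e-06) and likewise in CFPAC-1-GR (log2FC 2.24, limma adjusted p = 7.1e-05). ANKRD36C has near-identical relatives on the same chromosome, so how reads were divided among them is uncertain.

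KCNQ1OT1 binds chromatin in cis and silences genes of the KCNQ1 domain on the paternal chromosome. It was low in every library, at 0.121, 0.141 and 0.160 FPKM in BxPC-3, 0.168, 0.155 and 0.160 in BxPC-3-GR, and 0.596, 0.405 and 0.458 in CFPAC-1-GR. In CFPAC-1 it lay at 0.00225, 0.00346 and 0.00085 FPKM. Because this gene has a single transcript its fragments could be read from FPKM, and the CFPAC-1 libraries held about 4, 4 and 1 of them, against about 1190, 634 and 650 in CFPAC-1-GR. The BxPC-3 lines overlapped, CFPAC-1-GR stood above them and CFPAC-1 below. Its mean of less than 1 FPKM kept it out of every test. When all genes were fitted with a pseudocount of 0.1, an alternative chosen after the values were seen, the log2FC was 2.51 in CFPAC-1-GR but 0.12 in BxPC-3-GR. It overlaps KCNQ1 on the opposite strand, and since the libraries are not stated to keep strand, reads of the pair cannot be told apart, although KCNQ1 did not exceed 0.266 FPKM.

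H19, an imprinted RNA of fetal tissues that is expressed from the maternal chromosome and hosts miR-675, was lower in both CFPAC-1 lines than in either BxPC-3 line. FPKM was 2.01, 2.49 and 2.08 in BxPC-3 and 31.1, 30.08 and 47.07 in BxPC-3-GR. It was 0.0171, 0.0158 and 0.0312 in CFPAC-1 and 0.0977, 0.1206 and 0.120 in CFPAC-1-GR. The CFPAC-1 values did not exceed those of 1 fragment on the longest transcript (0.022, 0.0339 and 0.0333 FPKM). None of the 4 groups overlapped, in the order BxPC-3-GR, BxPC-3, CFPAC-1-GR and CFPAC-1. The log2FC in BxPC-3-GR was 3.51 (SE 0.18), the 19th highest of 11710 genes, with a ratio of means of 16.4. In the CFPAC-1 pair H19 was under the minimum for a test, and its log2FC in the unfiltered fit with a pseudocount of 0.1 was 0.81.

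**Figure D1:**
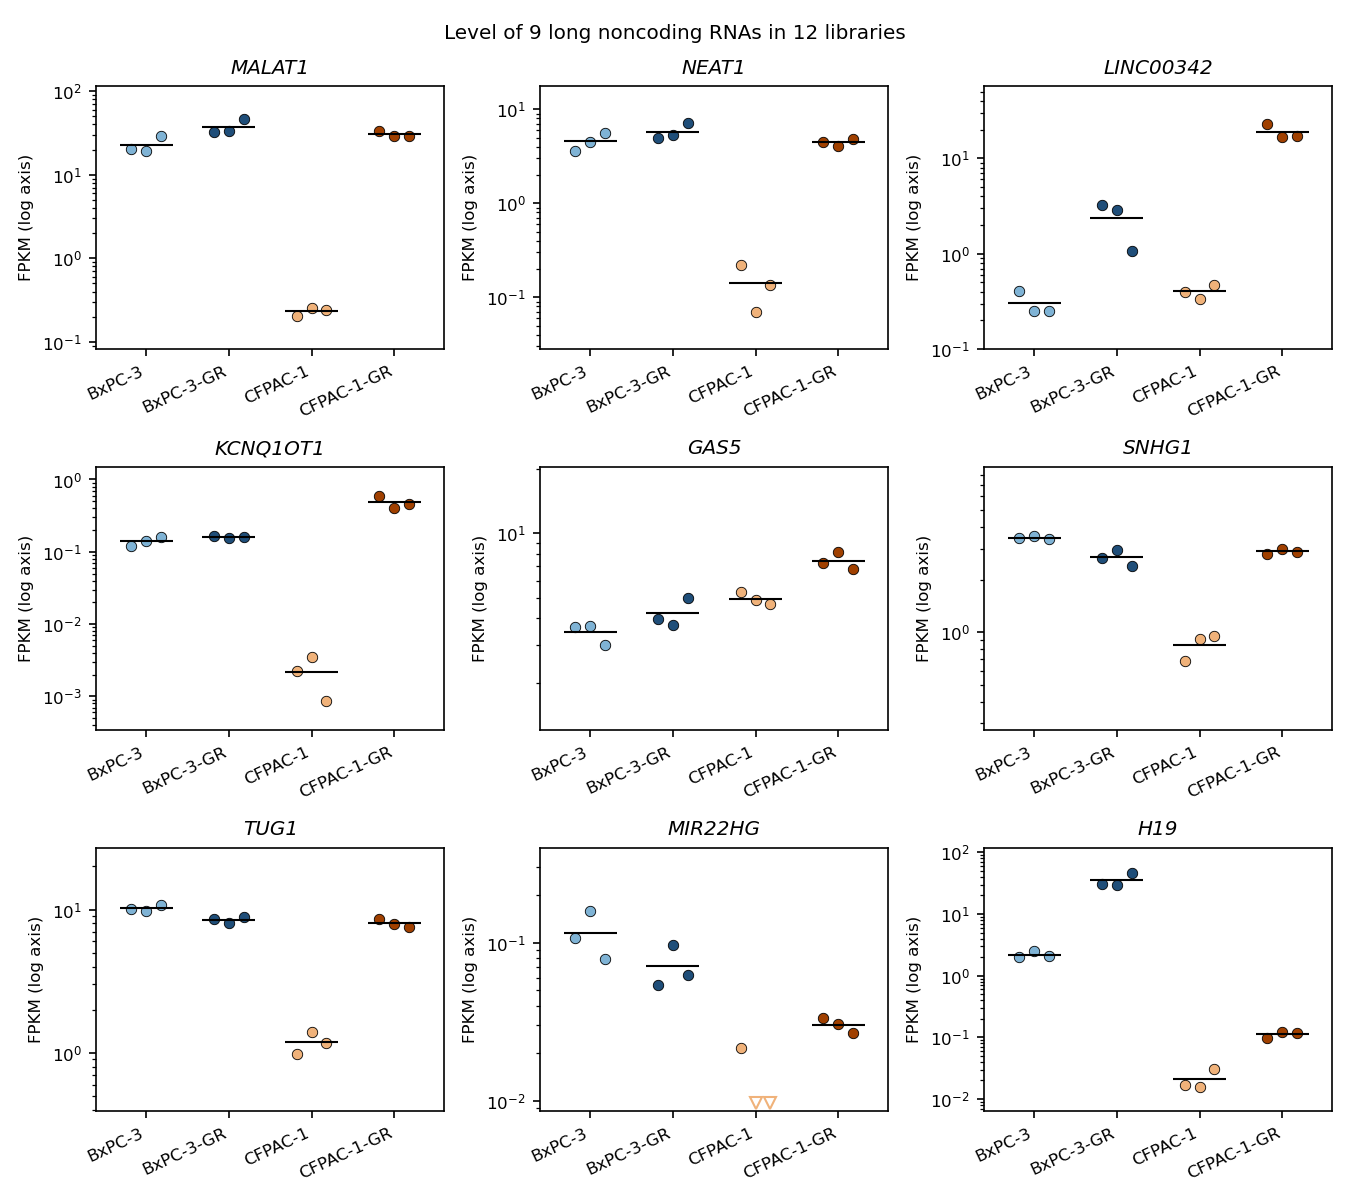
FPKM on log axes (each panel has its own range) of the 9 genes in both parental lines and their GR derivatives, with 1 point per library and a line at the mean of 3; open triangles at the lower edge are values listed at 0. The CFPAC-1 points lie lowest in 7 of the panels, MALAT1 has a mean of 30.58 in CFPAC-1-GR and 0.233 in CFPAC-1, and only H19 and LINC00342 are over 7 times higher in BxPC-3-GR than in BxPC-3.

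GAS5 and SNHG1 are spliced hosts of box C/D snoRNAs, which guide methylation of ribosomal RNA, and both belong to the class of transcripts whose spliced form is subject to nonsense-mediated decay. GAS5 was the only 1 of the 9 genes that was higher in CFPAC-1 than in BxPC-3 without overlap. Its FPKM values were 3.63, 3.67 and 2.99 in BxPC-3, 3.98, 3.74 and 4.98 in BxPC-3-GR, 5.33, 4.86 and 4.65 in parental CFPAC-1, and 7.29, 8.16 and 6.81 in CFPAC-1-GR. BxPC-3 was lowest, BxPC-3-GR overlapped CFPAC-1, and CFPAC-1-GR lay above all other groups. The log2FC was 0.24 (SE 0.11) in BxPC-3-GR and 0.50 (SE 0.086) in CFPAC-1-GR. GAS5 overlaps ZBTB37 and GAS5-AS1 on the opposite strand, at no more than 1.83 and 2.02 FPKM, and reads of such pairs cannot be told apart without strand.

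SNHG1 was lower in CFPAC-1 than in the other groups. Its FPKM values were 3.44, 3.54 and 3.43 in BxPC-3, 2.67, 2.97 and 2.40 in BxPC-3-GR, 0.685, 0.911 and 0.951 in parental CFPAC-1, and 2.79, 3.01 and 2.89 in CFPAC-1-GR. BxPC-3 was highest, the GR lines overlapped, and CFPAC-1 was lowest. The log2FC was -0.28 (SE 0.068) in BxPC-3-GR and 1.08 (SE 0.079) in CFPAC-1-GR, and the latter was 0.90 and 0.82 under median-of-ratios and upper-quartile scaling.

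MIR22HG, the host of miR-22, did not exceed 0.159 FPKM in any library. It lay at 0.108, 0.159 and 0.0792 FPKM in BxPC-3, 0.0537, 0.0964 and 0.0629 in BxPC-3-GR, and 0.0334, 0.0304 and 0.0268 in CFPAC-1-GR, and was listed at 0.0214, 0 and 0 in CFPAC-1. The BxPC-3 lines overlapped and the CFPAC-1 lines did not. No fold is given against values listed at 0, and the number of fragments behind them is unknown because the gene has several transcripts. It overlaps WDR81, which reached 1.04 FPKM, on the opposite strand.

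The row RF01871 took very different values among replicates. In BxPC-3 it lay at 88.45, 0.536 and 131.3 FPKM, and in BxPC-3-GR at 0.418, 126.2 and 0.424, while the other 6 libraries lay between 0.483 and 0.835. The low values equalled about 1 fragment each, and the high ones 145.7, 212.3 and 258.2 fragments. The 3 high libraries fell in both groups, which overlapped, and the log2FC in BxPC-3-GR was -2.05 (SE 2.40) and ranged from -4.21 to -0.88 when 1 library was left out. MALAT1 itself did not show this split in the same libraries.

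Most of the small RNAs inside the host genes were at or near 0 as separate rows. All 7 GAS5 snoRNA rows found in the table (SNORD44, SNORD74, SNORD75, SNORD77, SNORD78, SNORD79 and SNORD81) and SNORD29 of SNHG1 were listed at 0 in every library. SNORD25 lay at the value of about 1 fragment in 12 of 12 libraries, and SNORD28 and MIR675 did so in 10 and MIR22 in 7, the others being 0. SNORD26 of SNHG1 lay at 14.58, 23.11 and 20.3 FPKM in BxPC-3, 10.59, 11.73 and 11.28 in BxPC-3-GR, 2.06, 1.06 and 1.04 in parental CFPAC-1, about 3, 1 and 1 fragments, and 16.5, 14.8 and 18.02 in CFPAC-1-GR. It rose in CFPAC-1-GR (log2FC 2.89, SE 0.17, limma adjusted p = 9.7e-06), as did SNORD30 (log2FC 2.89, SE 0.10, limma adjusted p = 6.3e-06), whose 3 CFPAC-1 libraries lay at the value of about 1 fragment each. Those 3 values differed only by depth, so the SE and p of SNORD30 hold no spread in fragments among them. Whether the value of 1 fragment is a floor of the deposited values was not tested. With the trend with GC content described below subtracted, the log2FC of SNORD26 and SNORD30 were 1.51 and 1.60. A second row named SNORD22 inside SNHG1 also rose in CFPAC-1-GR (log2FC 2.94, limma adjusted p = 1.7e-05, 2.29 after subtraction) and was not called in BxPC-3-GR (-0.20), whereas the row matched as SNORD22 was at about 1 fragment in 11 of 12 libraries. SNORD26 and SNORD30 were not called in BxPC-3-GR either, where SNORD26 had a log2FC of -0.71 and SNORD30 of -0.53. These rows lie inside the SNHG1 gene, so reads of the host precursor can fall in them.

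The CFPAC-1 libraries differed from all others in how level depended on base composition. Over 12184 genes, log2(FPKM + 1) changed by 0.626 to 0.637 per 10 percentage points of GC content in the 3 CFPAC-1 libraries and by -0.271 to -0.150 in the other 9. The log2FC in CFPAC-1-GR changed by -0.838 per 10 points (Spearman rho -0.777 across 12030 genes, which are not replicates), compared with 0.0299 in BxPC-3-GR. Among the 2484 genes with a GC content of 40% to 45%, where all 6 of the genes tested lay, the median log2FC in CFPAC-1-GR was 0.86, the 5th to 95th percentiles ran from -0.22 to 1.94, and 40.2% were called upregulated. MALAT1 (4.68), LINC00342 (3.81), NEAT1 (2.26) and TUG1 (2.05) lay above this range, and SNHG1 (1.08) and GAS5 (0.50) within it. The highest value in the band was 5.08. The GC dependence and the groups cannot be told apart in CFPAC-1, since every CFPAC-1 library had it.

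**Figure D2:**
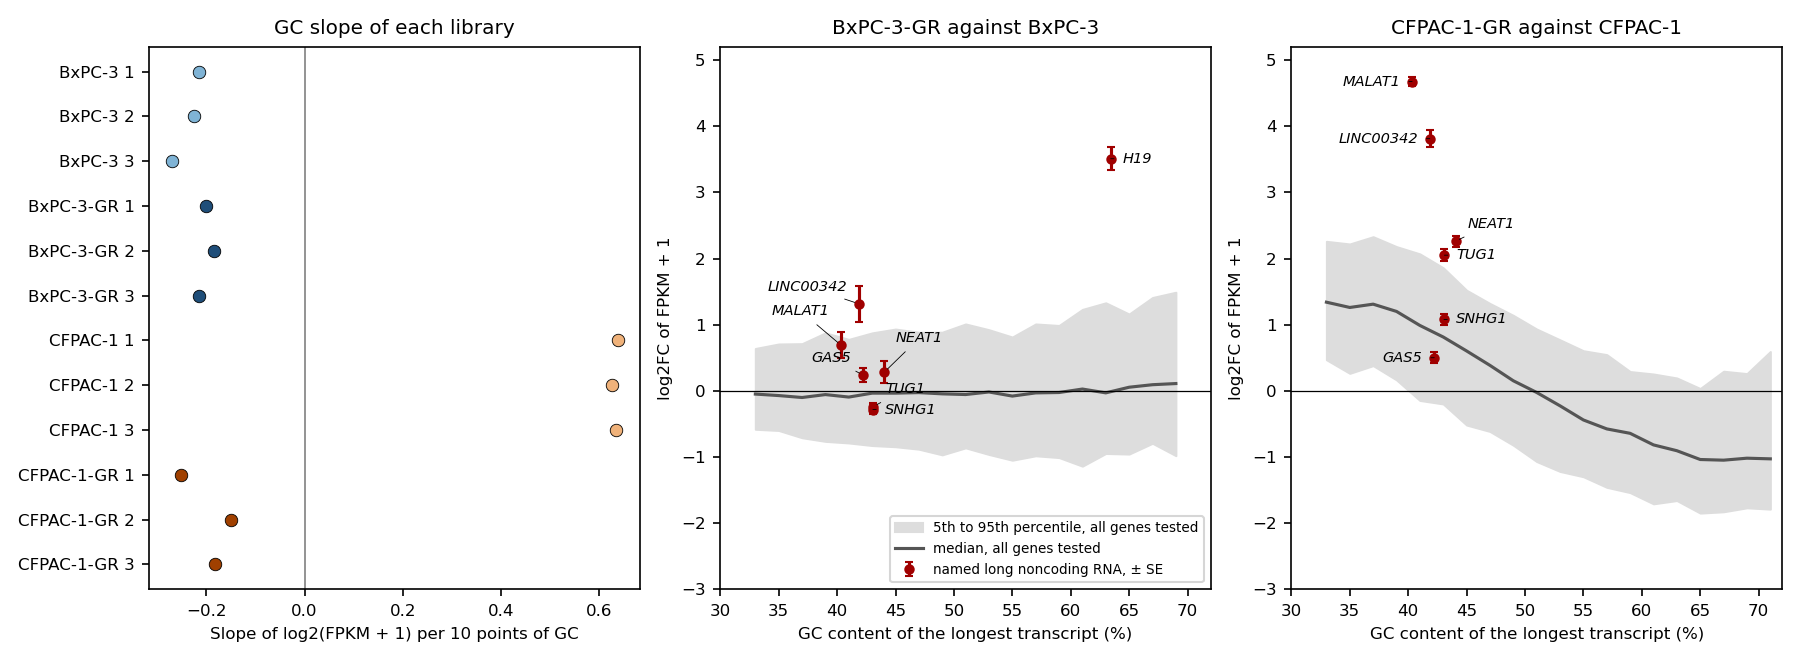
Left, slope of log2(FPKM + 1) per 10 points of GC content in each of the 12 libraries; middle and right, log2FC of FPKM + 1 against GC content (%) for all genes tested in 2-point steps (line, median; band, 5th to 95th percentile) with the tested long noncoding RNAs as points ± SE. The 3 CFPAC-1 slopes lie between 0.626 and 0.637 with all others below 0, and MALAT1, LINC00342, NEAT1 and TUG1 lie above the band in CFPAC-1-GR.

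Significantly differentially expressed (SDE) genes were those with an adjusted p (Benjamini-Hochberg) under 0.05 and a log2FC above 1 or below -1. In BxPC-3-GR against BxPC-3, tests were possible for 7 of the 9 genes, and 2 of these, H19 and LINC00342, lay past both thresholds in the upward direction, where 4.14% of 11710 genes did. In CFPAC-1-GR against CFPAC-1, 6 were tested and 5 of them (MALAT1, LINC00342, NEAT1, TUG1 and SNHG1) did so upward, where 20.5% of 12051 genes did. All 9 genes were higher in CFPAC-1-GR than in CFPAC-1 without overlap, as were 45.7% of the genes tested, and 36.4% were lower in that way. KCNQ1OT1, MIR22HG and H19 were not tested in this pair and lie outside those shares. For MIR22HG the lowest CFPAC-1-GR value was 0.0268 FPKM and the highest CFPAC-1 value 0.0214, where 1 fragment on the longest transcript equalled 0.0175 to 0.0303. In BxPC-3-GR 4 of the 9 were higher and 2 lower without overlap, against 30.1% and 36.0% of the genes tested. These comparisons chose the genes, and MALAT1, NEAT1, LINC00342 and SNHG1 in the CFPAC-1 pair, and LINC00342 in the BxPC-3 pair, reached the mean of 1 FPKM only through the resistant libraries. The criteria are therefore no test of these genes, and nothing is read from the counts. Over all genes the CFPAC-1-GR calls were 2473 up and 1407 down, and turned to 1718 up and 2290 down under median-of-ratios scaling and 1454 up and 2652 down under upper-quartile scaling. The median log2FC of all genes moved from 0.13 to -0.13 and -0.24 under these scalings, whereas MALAT1 kept 4.50 and 4.42, LINC00342 3.63 and 3.54, NEAT1 2.12 and 2.06, and TUG1 1.83 and 1.74. GAS5 moved from 0.50 to 0.24 and 0.13.

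Subtracting the trend with GC content and length, fitted over all genes as a spline, lowered the CFPAC-1-GR values by 0.75 to 1.23. The trend at each gene was 1.23 for MALAT1, 1.10 for NEAT1, 1.01 for TUG1, 0.79 for LINC00342, 0.83 for GAS5 and 0.75 for SNHG1. What remained was 3.45 for MALAT1, 3.03 for LINC00342, 1.16 for NEAT1, 1.04 for TUG1, 0.33 for SNHG1 and -0.33 for GAS5. The values of 4 genes stayed past the thresholds, where 4.70% of 12030 genes were, that of SNHG1 did not, and the sign of GAS5 turned. These too describe genes chosen from this comparison. After subtraction MALAT1 was 5th and LINC00342 13th from the top of 12030 genes, whereas NEAT1 was 381st and TUG1 532nd. In BxPC-3-GR the largest shift was that of NEAT1 from 0.28 to 0.06, and H19 (3.48) and LINC00342 (1.40) stayed past the thresholds, where 4.23% of genes were in the upward direction.

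**Figure D3:**
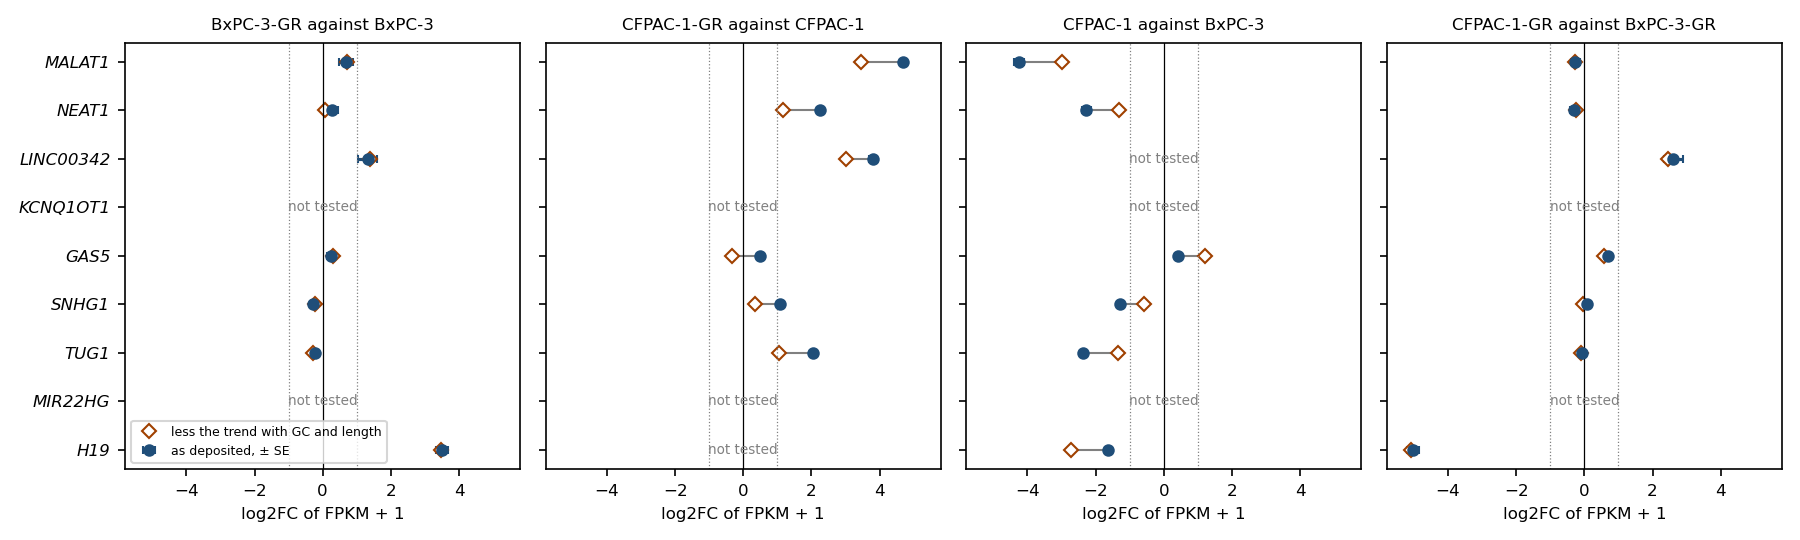
log2FC of FPKM + 1 for the 9 genes in 4 comparisons, as deposited (filled circles ± SE) and after the trend with GC content and length was subtracted (open diamonds); dotted lines mark an absolute log2FC of 1, and genes with a mean below 1 FPKM are marked as not tested. In both comparisons with CFPAC-1 the diamonds shift, MALAT1 from 4.68 to 3.45 and from -4.25 to -2.98, and in those without CFPAC-1 they nearly coincide with the circles.

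The parental lines, and then the resistant lines, were compared with each other to place the levels of each line. These comparisons use the same libraries as those that chose the genes, so the values are given as descriptions without a p. In the parental comparison, MALAT1, NEAT1, H19 and SNHG1 reached the mean of 1 FPKM only through BxPC-3. Of 6 genes past this filter, 5 were past the thresholds downward and none upward, where 24.7% and 19.8% of 11842 genes were. Without overlap, 7 of the 9, those under the filter included, were lower and 1 higher, against 45.6% and 40.1% of the 11842 genes past it. MALAT1 had a log2FC of -4.25 (SE 0.15) in CFPAC-1 against BxPC-3, at 0.233 against 22.85 FPKM. The log2FC was -2.36 (SE 0.084) for TUG1, -2.27 (SE 0.14) for NEAT1, -1.64 (SE 0.071) for H19, -1.28 (SE 0.070) for SNHG1 and 0.43 (SE 0.084) for GAS5. With the trend subtracted, MALAT1 (-2.98), H19 (-2.73), TUG1 (-1.35) and NEAT1 (-1.30) stayed past the thresholds downward, where 13.1% of genes were. SNHG1 (-0.59) did not, and GAS5 (1.20) was past them upward, where 13.5% were.

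MALAT1, SNHG1 and TUG1 overlapped between the 2 resistant lines, whereas LINC00342, KCNQ1OT1 and GAS5 were higher and H19, MIR22HG and NEAT1 lower in CFPAC-1-GR without overlap. In CFPAC-1-GR against BxPC-3-GR, log2FC changed by -0.0069 per 10 points of GC content. LINC00342 had a log2FC of 2.61 (SE 0.28), at 18.92 ± 3.47 against 2.40 ± 1.16 FPKM. H19, which reached the mean of 1 FPKM only through BxPC-3-GR, had a log2FC of -5.03 (SE 0.17), at 0.113 ± 0.013 against 36.08 ± 9.53 FPKM. Those were 1 gene up and 1 down of 7 past the filter, against 10.3% and 6.80% of 12330 genes. The log2FC was 0.69 (SE 0.11) for GAS5, -0.26 (SE 0.14) for MALAT1, -0.29 (SE 0.13) for NEAT1, 0.09 (SE 0.075) for SNHG1 and -0.07 (SE 0.068) for TUG1, which does not show that the last 4 were equal. SNHG1 changed sign with scaling, to -0.05 under median-of-ratios and -0.01 under upper-quartile scaling. With the trend subtracted LINC00342 (2.45) and H19 stayed past the thresholds, where 8.80% of genes were upward and 8.32% downward. Without overlap 3 of the 9, those under the filter included, were higher and 3 lower, against 40.4% and 30.6% of the 12330 genes past it.

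Other long noncoding RNAs were read from lists of genes with related roles, each gene tested over the whole table. The lists were chosen with earlier results of these data known, so the p-values of their genes are descriptions. Several, among them MIR222HG, MIR210HG and LUC7L3, reached the mean of 1 FPKM only through the resistant libraries where called. Over all genes tested, 4.14% were called up and 3.62% down in BxPC-3-GR, and 20.5% and 11.7% in CFPAC-1-GR. After subtraction these shares were 4.23%, 3.45%, 4.70% and 3.98%. Of 16 tested snoRNA host genes, SNHG6 rose in BxPC-3-GR (9.42 ± 0.385 to 22.95 ± 1.53 FPKM, log2FC 1.20, limma adjusted p = 3.6e-05) and no other was called. In CFPAC-1-GR, 3 of 16 rose, namely SNHG3 (log2FC 1.27), SNHG4 (1.25) and SNHG14 (1.17), and DANCR fell (-1.46, limma adjusted p = 0.019). None of these 4 was called after the trend was subtracted, whereas SNHG9 was (1.31). As deposited, SNHG9 had a log2FC of 0.24 (limma adjusted p = 0.31) and its groups overlapped. The median log2FC of the list was 0.03 in CFPAC-1-GR and -0.25 in BxPC-3-GR, beside 0.13 and -0.05 over all genes tested.

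Among noncoding hosts of microRNAs, MIR210HG rose in BxPC-3-GR (0.262 ± 0.014 to 1.80 ± 0.246 FPKM, log2FC 1.15, limma adjusted p = 6.5e-05), 1 of 4 tested. In CFPAC-1-GR, 1 of 3 tested rose, MIR222HG, which was listed at 0 in all 3 CFPAC-1 libraries and at 4.03 ± 0.319 FPKM in CFPAC-1-GR (limma adjusted p = 6.3e-06). Those values of 0 bring no spread among the CFPAC-1 libraries into its p. MIR222HG was still called with the trend subtracted, when MIR31HG (1.16) was called as well. Of 20 further lncRNAs tested in BxPC-3-GR, 3 rose, UCA1 (2.79 ± 0.228 to 35.75 ± 2.57 FPKM, log2FC 3.28, limma adjusted p = 2.4e-06), LINC00511 (1.45) and HOXA-AS2 (1.25), and none fell. In CFPAC-1-GR, 4 of 17 rose, namely OIP5-AS1 (2.09), NORAD (1.95), PSMA3-AS1 (1.25) and RN7SK (1.01). NORAD, an abundant cytoplasmic RNA that binds Pumilio proteins, went from 18.9 ± 1.45 to 76.33 ± 11.1 FPKM. Of those 4, RN7SK, a small nuclear RNA made by RNA polymerase III, was still called with the trend subtracted (1.72) and NORAD (0.96) was not. Subtraction also brought calls that were absent as deposited, RMRP (1.77) and STAG3L5P-PVRIG2P-PILRB (1.59) upward and CYTOR (-2.105) downward.

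Among long noncoding genes as a class, 18.5% of 519 were called upward in CFPAC-1-GR as deposited, and 21.2% of 10090 protein-coding genes were, a difference that was not tested. Some had a single block once the exons of all their transcripts were joined, as did MALAT1, NEAT1 and TUG1. A single block does not mean that the RNA is unspliced. Genes with a single block were called upward in 52 of 151 cases (34.4%), against 44 of 368 with several blocks. After subtraction of the trend these shares were 13.9% and 12.8%, and that of protein-coding genes was 3.34%.

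Proteins that work with these RNAs were divided by the nuclear body they belong to. Of 25 tested nuclear speckle and SR proteins, the splicing factors found around MALAT1, 11 rose in CFPAC-1-GR and 1 fell. The largest changes were LUC7L3 (0.9802 ± 0.116 to 8.46 ± 0.451 FPKM, log2FC 2.26, limma adjusted p = 6.3e-06), PNN (log2FC 2.12), PRPF4B (2.03) and SRSF10 (2.01). Of all genes tested 20.5% rose, and of those with a GC content of 40% to 45%, 40.2% did. The median GC content of the list was 41.1%, and its median log2FC was 0.87 beside 0.13 for all genes. After subtraction the median of the list was 0.05, with 1 gene called up (PNN) and 1 down (U2AF1). In BxPC-3-GR none of 26 was called, and the median was -0.25.

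Of 24 tested paraspeckle proteins, which assemble on NEAT1, 3 rose in CFPAC-1-GR, MATR3 (log2FC 1.86), NUDT21 (1.24) and SS18L1 (1.16), and RBM14 fell (-1.19, limma adjusted p = 2.0e-04). None of them was called after subtraction, whereas EWSR1 was called downward (-1.39, and -0.30 as deposited). None of 27 was called in BxPC-3-GR, with a median of -0.35.

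Factors of nonsense-mediated decay, the pathway that degrades spliced GAS5 and SNHG1, included 3 of 14 that rose in CFPAC-1-GR, UPF2 (1.79 ± 0.064 to 13.47 ± 2.60 FPKM, log2FC 2.36, limma adjusted p = 8.5e-06), SMG1 (1.89) and UPF3B (1.34). Only UPF2 (1.24) was called with the trend subtracted. In BxPC-3-GR, 1 of 14, SMG9, fell (-1.13, limma adjusted p = 3.6e-05).

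The list of snoRNP proteins is not limited to the particles that the box C/D snoRNAs of GAS5 and SNHG1 enter. Of all lists it had the most downward calls in BxPC-3-GR, 4 of 14, where 3.62% of all genes were called down. These were NOP56 (log2FC -1.27), RUVBL2 (-1.21, limma adjusted p = 8.0e-05), FBL, the methyltransferase (-1.02), and DKC1 (-1.01). With the trend subtracted FBL (-0.94) and DKC1 (-0.99) were under the fold threshold, and 2 calls were left. In CFPAC-1-GR, NOP58 (2.24, limma adjusted p = 6.3e-06) and ZNHIT6 (1.66) rose, and SNU13 (-1.59), RUVBL2 (-1.51) and NHP2 (-1.24) fell. NOP58 (1.35) and SNU13 (-1.39) were called with the trend subtracted.

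**Figure D4:**
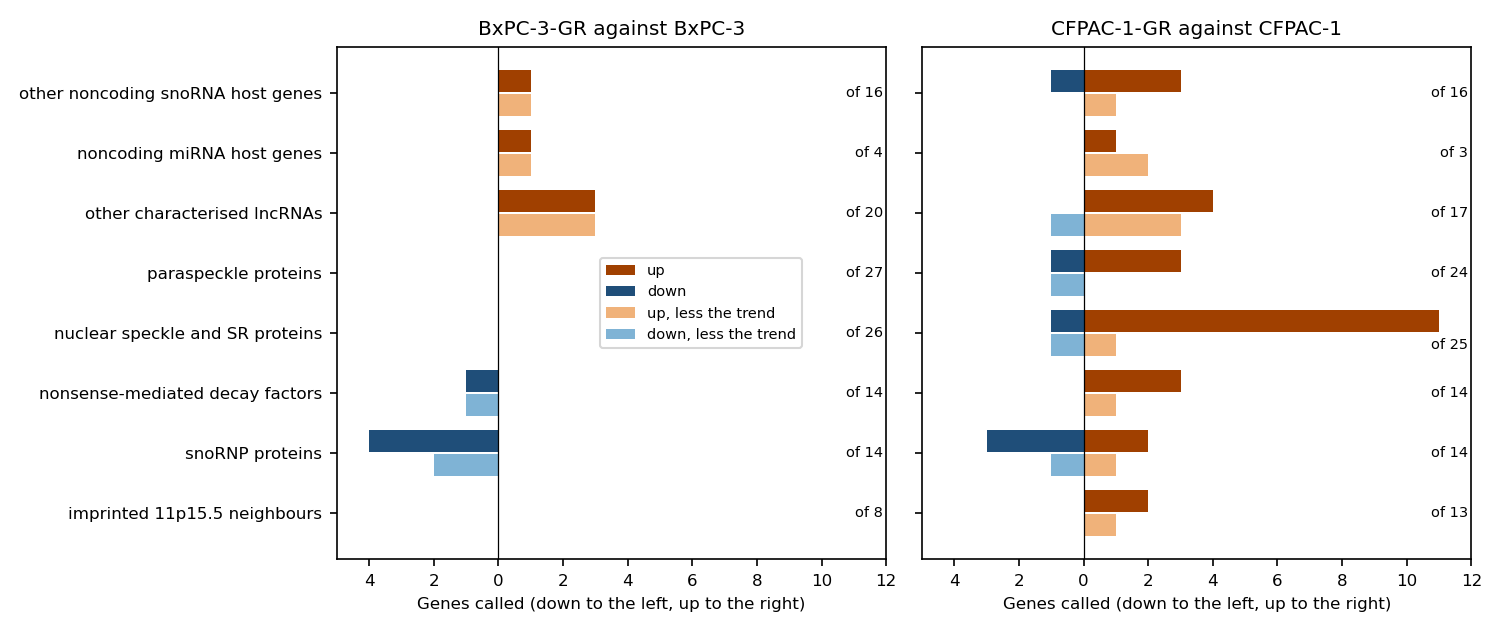
Number of genes called in each list of related genes in BxPC-3-GR (left) and CFPAC-1-GR (right), upward to the right of 0 and downward to the left, as deposited (dark) and with the trend with GC content and length subtracted (light); the number tested stands at the right edge. The 11 upward calls among 25 nuclear speckle and SR proteins in CFPAC-1-GR become 1 after subtraction.

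The genomic neighbors of the 9 genes did not share their pattern throughout. LTBP3, 32289 bases from MALAT1, rose in BxPC-3-GR (log2FC 1.20, limma adjusted p = 1.7e-05) and fell in CFPAC-1-GR (-1.19, limma adjusted p = 5e-05), although neither value passed the fold threshold once the trend was subtracted. FRMD8, 9249 bases from NEAT1, was not called (-0.26 and -0.44). A short annotated row inside NEAT1, NEAT1_2, did not pass the test in CFPAC-1-GR (-0.69, limma adjusted p = 0.14). Despite its name, that row does not stand for the long form of NEAT1. Rows of its annotated type inside NEAT1 did not exceed 3.92 FPKM. Near TUG1, SMTN fell in BxPC-3-GR (-1.45, limma adjusted p = 3.6e-05). Near GAS5, RC3H1 rose in CFPAC-1-GR (1.95, limma adjusted p = 9.3e-06, 0.56 after subtraction). The genes listed with H19 and KCNQ1OT1 were those in and around the imprinted region of 11p15.5 and the IGF2 mRNA-binding proteins. None of 8 tested was called in BxPC-3-GR. In CFPAC-1-GR 2 of 13 rose, NAP1L4 (4.21 ± 0.635 to 13.24 ± 1.08 FPKM, log2FC 1.46, limma adjusted p = 2.4e-05) and IGF2BP3 (1.28, limma adjusted p = 0.0023). NAP1L4 kept 1.38 and IGF2BP3 0.08 with the trend subtracted. MRPL23, 10654 bases from H19, was not called (0.51 and -0.81).

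The genes whose log2(FPKM + 1) ran most like these RNAs over the 12 libraries, among 12210 genes, were mostly protein-coding. For MALAT1 they were WDR19, WAC and RPS6KA3 (Pearson r 0.997, 0.996 and 0.996), for NEAT1 SENP7, BTAF1 and PNISR (0.993, 0.993 and 0.992), and for TUG1 ZC3HAV1, BAZ1B and CLPX (0.997 each). For SNHG1 they were TMEM30B, MASTL and INO80 (0.993, 0.992 and 0.992), for LINC00342 ARSJ, OSGIN2 and SPOP (0.985, 0.982 and 0.977), for GAS5 DPY30, CALCOCO2 and VWA5A (0.988, 0.975 and 0.970), and for KCNQ1OT1 CARMIL1, MBTPS2 and MAP3K1 (0.987, 0.986 and 0.986). For H19 they were SCGB1A1, RASSF9 and LINC01559 (0.997, 0.996 and 0.994), and for MIR22HG AC239868.3, AL031058.1 and MED10 (0.962, 0.949 and 0.940). The 12 points share libraries of 4 groups and the GC dependence of CFPAC-1, so these values only describe the likeness of the patterns.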

How the data were processed

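FPKM values of 58302 genes in 12 libraries, as the authors deposited them, were used; the annotation was Ensembl release 91 on GRCh38. The submitters' processing notes name Trimmomatic 0.27, FastQC 0.10.1 and TopHat2 2.0.8, and the counting program is not given in the sources used here. Low values were whole multiples of 1 fragment (tolerance 0.05) in 99.4% to 99.7% of cases for genes with 1 transcript and 9.39% to 11.1% for others, so counts were not used.

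Groups were compared with limma 3.58.1 in R 4.3.3 on log2(FPKM + 1), for genes whose mean over the 6 libraries reached 1 FPKM, with Benjamini-Hochberg adjustment over all of them. Genes with adjusted p below 0.05 and absolute log2FC above 1 were called. With 3 against 3 libraries, an exact permutation test of 1 gene could not go below p = 0.10. GC content of the longest transcript and exon length came from GENCODE release 29 (58039 genes matched), and their trend was a natural spline with 5 degrees of freedom each. The procedure was tested on simulated data.

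Named genes were the 9 genes described, up to 4 called genes of each list with the largest absolute log2FC, up to 4 tested neighbors within 100 kb, the 3 most alike genes and hosted small RNAs; further called genes were named to complete counts of 5 or fewer or the trend's calls, after their values were seen. The 9 genes and the lists were chosen with earlier results of these data known, so no p-value is given for the 9 genes in any comparison. The p-values of list genes and hosted small RNAs carry the same limit and are descriptions. SNORD47, SNORD76, SNORD80 and SNORD31 were not analysed here. One tested neighbor is not reported here. Alternatives (pseudocount, filter, scaling, trend, replicate block, all libraries in 1 fit, each library left out) are given in the closing section. Figures were drawn with matplotlib 3.10.9.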

Additional observations from a re-analysis of the deposited data

Results flagged for a closer look

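For the genes below the difference between the lines was not tested; each had all 3 resistant libraries on one side of its parental libraries in the CFPAC-1 pair and on the opposite side in the BxPC-3 pair. The CFPAC-1-GR log2FC less the BxPC-3-GR log2FC was 2.29 for TUG1 (-0.24 and 2.05) and 1.36 for SNHG1 (-0.28 and 1.08). With the trend with GC content and length subtracted, TUG1 stood at -0.27 and 1.04 and SNHG1 at -0.24 and 0.33.

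The same contrast of directions was seen in snoRNA hosts and their particle, with differences of 3.61 for SNORD26, 3.16 for NOP58, 1.57 for SNHG4, -1.46 for SNHG6 and -1.82 for DANCR. It was seen in nonsense-mediated decay factors, at 2.84 for UPF2, 2.47 for SMG1 and 1.81 for UPF3B, and in nuclear speckle proteins, at 2.73 for PNN, 2.51 for PRPF4B and 2.15 for SRSF10. NUDT21 (2.01) and SS18L1 (1.499) of the paraspeckle list and the noncoding genes MIR222HG (2.85) and NORAD (2.29) completed the group. With the trend subtracted, NUDT21 stood at -0.74 in the BxPC-3 pair and -0.03 in the CFPAC-1 pair, so that both were below 0.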

How the results depend on the processing

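The log2FC of each of the 9 genes that was tested kept its sign under all alternatives run, except that GAS5 in CFPAC-1-GR turned to -0.33 with the trend with GC content and length subtracted (also with the replicate block) and to -0.53 when the pseudocount was also 0.1, and that SNHG1 between the resistant lines turned from 0.09 to between -0.06 and -0.01 under both other scalings and wherever the trend was subtracted. The numbers of genes called in BxPC-3-GR against BxPC-3, CFPAC-1-GR against CFPAC-1, CFPAC-1 against BxPC-3 and CFPAC-1-GR against BxPC-3-GR were 909, 3880, 5274 and 2111. Without a filter and with a pseudocount of 0.1, a pair of settings chosen after the data were seen, they were 2769, 8509, 11018 and 6565. A pseudocount of 0.1 gave 1429 in BxPC-3-GR. Subtracting the trend gave 1045 in CFPAC-1-GR and 3143 between the parental lines, and together with the pseudocount of 0.1, also added later, 1854 in CFPAC-1-GR, and 1428 in BxPC-3-GR. Leaving out 1 library gave 849 to 965, 3614 to 3991, 5127 to 5320 and 2072 to 2170 calls.

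Of the 9 genes, 1 to 2 were past the thresholds in BxPC-3-GR when 1 library was left out, since LINC00342 fell under the minimum without BxPC-3-GR replicate 1, and 4 to 5 between the parental lines, where H19 fell under it when a BxPC-3 library was left out. The calls up and down were 2350 and 2924 between the parental lines (3059 and 2280 under upper-quartile scaling) and 1273 and 838 between the resistant lines (1019 and 1125 under median-of-ratios scaling). The 4 snoRNP calls in BxPC-3-GR were 2 with the trend subtracted, under median-of-ratios scaling, and without BxPC-3-GR replicate 3 or BxPC-3 replicate 1, and MIR210HG was not called without BxPC-3-GR replicate 2 or 3.

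Same-numbered libraries did not deviate together (correlations of 0.0959, -0.0521 and 0.0584 in the BxPC-3 pair and 0.000145, -0.143 and -0.0671 in the CFPAC-1 pair), so the numbers were not used as pairs. With the replicate block 908 genes were called in the BxPC-3 pair and 3883 in the CFPAC-1 pair, and with the block and the trend subtracted 1048 in CFPAC-1-GR and 3142 between the parental lines.

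Depth limits KCNQ1OT1, MIR22HG and H19 in CFPAC-1 and the hosted small RNAs most, where values rest on a few fragments; such limits cover counting error only.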
